A study of Homo sapiens with 6 samples.

Results

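The MYC network is a small set of transcription factors that bind the same DNA letters and compete for shared partners. Its members here were MYC, MYCN, MYCL, MXD1, MXD3, MXD4, MNT, MLX and MLXIP, taken with every probe set annotated to them. That gave 9 genes and 32 probe sets out of 54675 probe sets on the array. For 8 of the 9 genes at least 1 probe set carried a single gene symbol. All 3 MXD4 probe sets were annotated to MIR4800 as well, a microRNA gene that lies inside MXD4 in RefSeq, so their signal cannot be given to MXD4 alone.

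RNA came from IGROV1, an established human ovarian carcinoma cell line, with no treatment other than staining with the DNA dye Hoechst 33342 and sorting. The side population (SP) holds the cells that keep little of the dye, because membrane pumps export it, and the non-SP cells lie outside that gate. There were 3 SP and 3 non-SP samples, each on 1 array and each described as a biological replicate of the same line. The labels do not say whether the replicates were separate cultures, so the replicate spread behind every p-value here may be partly technical.

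MYC, MYCN and MYCL encode activators that pair with MAX and bind the E-box CACGTG at genes for growth, ribosome production and metabolism. MXD1, MXD3, MXD4 and MNT encode antagonists that pair with the same partner, bind the same letters and recruit SIN3 and histone deacetylases to repress. MLX is a second shared partner, which pairs with MXD1, MXD4 or MNT, or separately with MLXIP (MondoA), a factor that responds to glucose-derived signals. Copy gains of MYC are common in ovarian carcinoma.

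The cells carried the epithelial identity of the line: PAX8, KRT8, KRT18, KRT19, EPCAM and CDH1 lay between 7.18 and 12.29 on the log2 scale on all arrays. Of these, KRT8 differed by -0.71 (SE 0.22) and EPCAM by -0.15 (SE 0.11), SP minus non-SP, both without overlap of the groups, and CDH1 by 0.79 (SE 0.31) with overlap. All 3 missed the test (limma adjusted p = 0.611, 0.886 and 0.709), and 2 of them differed by more than MYC did. The dimmer CDH1 probe set differed by 0.57 (SE 0.20, limma adjusted p = 0.607), without overlap. Over all genes, 7.1% were lower in SP cells without overlap. Markers of other cell types (9 measured of 10 listed) lay between 2.24 and 7.15, with CD3E and PTPRC at or near the level of the TrpnX controls, which target a bacterial transcript. Their summed log2 level, with 1 probe set per gene, was 43.8 to 45.0 on SP arrays and 44.0 to 45.4 on non-SP arrays. By gene, 2 lay above 0 and 7 below, or 22.2% above, against 45.2% of all genes. VWF, with the smallest p of them, differed by -0.29 (SE 0.13, limma adjusted p = 0.749) without overlap, and by 0.13 at its other probe set. PTPRC differed by 0.44 (SE 0.28), PDGFRB by -0.19 (SE 0.16) and PECAM1 by -0.20 (SE 0.20). Of all probe sets fitted, 6.87% were lower and 5.59% higher in SP cells without overlap. Over all 29 probe sets of these markers, 5 were lower and 1 was higher without overlap, and 0 passed the test. The furthest apart were a COL1A1 probe set at -2.30 (SE 0.33, limma adjusted p = 0.178) and a PECAM1 probe set at -1.75 (SE 0.75, limma adjusted p = 0.691), both named after their values were seen. The part of these markers in the results was not tested. The 6 arrays fell into 2 sets along their first principal component, which held 45.8% of the variance of all genes. Set 1 held SP replicate 1 and non-SP replicates 1 and 3, and set 2 held SP replicates 2 and 3 and non-SP replicate 2. The ACTB 3' minus 5' signal, a measure of how evenly a transcript was copied, was 2.02 to 2.29 in set 1 and 2.46 to 2.55 in set 2. It differed little between SP and non-SP arrays (2.34 ± 0.22 against 2.29 ± 0.26, SD, n = 3 each, exact permutation p = 0.9, two-sided, where 0.1 is the smallest p that 3 against 3 allows). The sets were read from the same values and are not groups of the study.

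SP cells had more MYC signal than non-SP cells on every array, but the difference did not pass the test over all genes. MYC has 1 probe set, 202431_s_at, with log2 values of 10.74, 10.46 and 10.39 in SP replicates 1 to 3 and 9.97, 9.64 and 10.01 in non-SP replicates 1 to 3. The groups did not overlap, with a gap of 0.38 between the lowest SP and the highest non-SP array. The group means were 10.53 ± 0.18 and 9.87 ± 0.20 (SD, n = 3 each). SP minus non-SP was 0.65 (SE 0.16). As a ratio this is 1.57-fold (95% confidence interval 1.21 to 2.05). In limma, fitted over 19775 genes with 1 probe set per gene, its unadjusted p of 0.00513 ranked 203 among all genes and its Benjamini-Hochberg adjusted p was 0.497. In bulk samples such a difference cannot tell more RNA per cell from more cells that carry it.

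The MYC difference was also present inside each array set. In set 1 the SP array exceeded the mean of the non-SP arrays by 0.75, and in set 2 the SP mean exceeded the non-SP array by 0.78. With the set as a block the difference was 0.77 (SE 0.10, limma adjusted p = 0.097). Adjusted for the ACTB 3' minus 5' signal of each array it was 0.69 (SE 0.11, limma adjusted p = 0.166). Leaving out 1 array at a time gave 0.54 to 0.72, and the adjusted p lay between 0.097 and 0.922 over 16 alternatives. The block comes from the values tested, so its p may be too small.

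**Figure D1:**
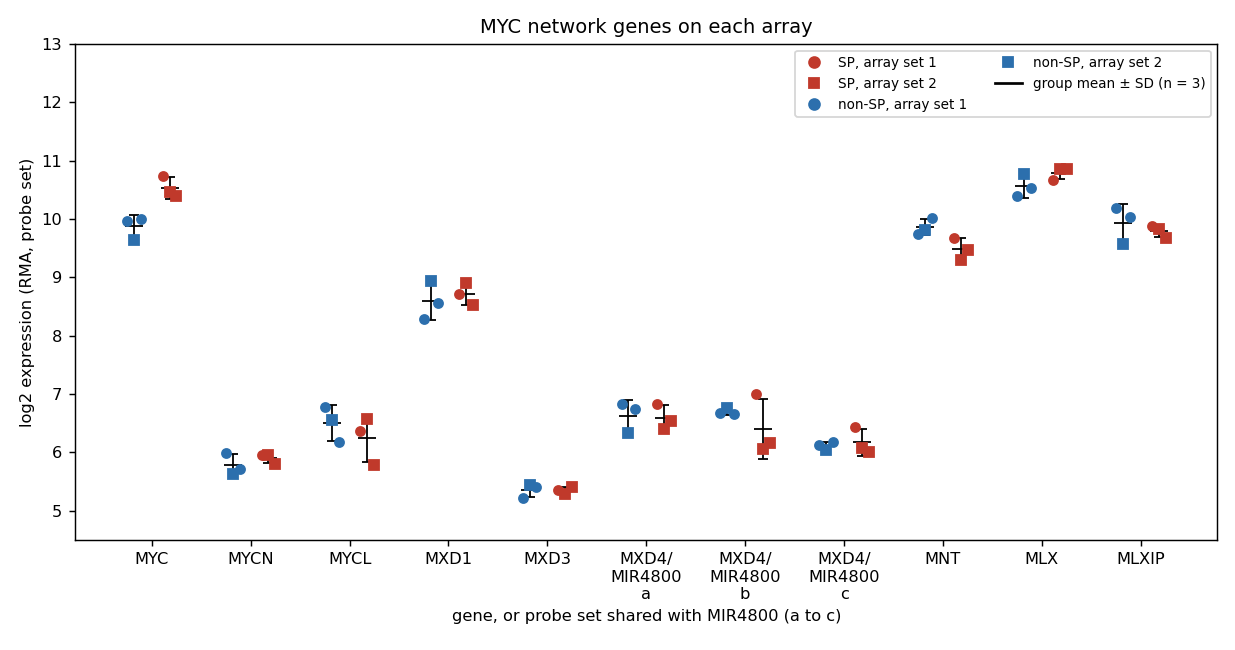
Log2 expression (vertical axis) of the MYC network genes on each of the 6 arrays, with 1 probe set per gene and the 3 probe sets shared by MXD4 and MIR4800. Circles are arrays of set 1, squares of set 2, and bars are group means ± SD (n = 3); MYC (9.64 to 10.01 in non-SP, 10.39 to 10.74 in SP) and MNT are the members whose groups do not overlap.

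Over all members, 0 of 8 genes and 0 of 32 probe sets passed an adjusted p of 0.05 in limma. The background in the same fits was 0.00506% of genes and 0.00183% of probe sets, 1 in each. Without adjustment, MYC and MNT reached p under 0.05, 2 of 8 genes, where 6.78% of all genes reached that level. Their 2 probe sets were 6.25% of 32, where 7.31% of all probe sets reached it. Groups did not overlap for 1 gene higher (MYC) and 1 gene lower (MNT) in SP cells, 25% of 8. Over every gene the shares were 4.78% higher, 7.1% lower and 11.9% in all. Over probe sets the count was 1 higher and 2 lower, or 9.38% of 32, against 5.59%, 6.87% and 12.5% of all. Probe sets of 1 gene are not independent, with 10 of the 32 annotated to MYCN, and these shares were not tested. By sign, 14 probe sets lay above 0 and 18 below, with a median of -0.01.

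MYCN encodes the family member used in the nervous system and in some proliferative ovarian carcinomas. Of its 10 probe sets, 4 lay below the highest TrpnX control on all 6 arrays. The other 6 were weak, with the brightest, 209756_s_at, at 5.95, 5.95 and 5.80 in SP replicates and 5.99, 5.62 and 5.72 in non-SP replicates. Both groups overlapped and their means were 5.90 ± 0.09 and 5.78 ± 0.19 (SD, n = 3 each). The difference of 0.13 had a 95% interval of -0.20 to 0.46 (limma adjusted p = 0.929), and leaving out 1 array gave 0.05 to 0.23. Over the 10 probe sets, 8 differed below 0 and 2 above, from -0.33 to 0.13, so the sign for the gene depends on the probe set. The 1 MYCN probe set with groups that did not overlap, 234169_at, read 4.5, 4.47 and 4.57 in SP cells and 4.65, 4.67 and 4.75 in non-SP cells, which gave -0.17 (SE 0.11, limma adjusted p = 0.829).

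MYCL, the family member first found in lung cancer, was measured by 2 probe sets. The brighter read 6.36, 6.57 and 5.79 in SP replicates and 6.78, 6.56 and 6.17 in non-SP replicates. Values overlapped and replicate 3 was the lowest array of each group. The difference was -0.26 with a 95% interval of -0.86 to 0.34 (limma adjusted p = 0.922), and that of the dimmer probe set was -0.06. It ranged from -0.43 to -0.04 with 1 array left out, the smallest without SP replicate 3. The intervals of MYCN and MYCL both allow changes of either sign.

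MNT, the antagonist made in most cells whether or not they divide, had less signal in SP cells at its brighter probe set. Log2 values of 204206_at were 9.67, 9.29 and 9.47 in SP replicates and 9.75, 9.81 and 10.01 in non-SP replicates. All SP values lay below all non-SP values, by 0.08 at the closest. The means were 9.48 ± 0.19 and 9.86 ± 0.14 (SD, n = 3 each), a difference of -0.38 (SE 0.15) with a 95% interval of -0.73 to -0.03, which did not pass over all genes (limma adjusted p = 0.703). The difference was -0.21 in array set 1 and -0.43 in set 2. It stayed between -0.48 and -0.24 over 16 alternatives, the smallest when both probe sets were averaged. The other MNT probe set read 7.54, 6.99 and 7.5 in SP cells and 7.53, 7.80 and 7.04 in non-SP cells, which overlap, with a difference of -0.11 (SE 0.25).

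MXD1, an antagonist known to rise when cells leave the cycle and differentiate, did not separate the groups. Its brightest probe set read 8.72, 8.90 and 8.53 in SP replicates and 8.29, 8.94 and 8.56 in non-SP replicates. The non-SP group held both the highest and the lowest value. The difference was 0.12 with a 95% interval of -0.35 to 0.59 (limma adjusted p = 0.958). The other 2 probe sets differed by 0.06 and -0.31, and the mean of all 3 turned the gene to -0.04.

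MXD3, an antagonist tied to cells in S phase, had the smallest difference of the members. Its single probe set read 5.35, 5.29 and 5.40 in SP replicates and 5.22, 5.44 and 5.40 in non-SP replicates. The range over all 6 arrays was 5.22 to 5.44. The difference of -0.01 had a 95% interval of -0.28 to 0.27, and its sign turned under cyclic loess (0.03) and under median centring of the arrays (0.0023).

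The 3 probe sets of MXD4 and MIR4800 differed among themselves in direction. The first, 212346_s_at, read 6.83, 6.41 and 6.53 in SP replicates and 6.82, 6.33 and 6.74 in non-SP replicates. The second, 210778_s_at, read 6.99, 6.06 and 6.15 in SP replicates against 6.67, 6.76 and 6.65 in non-SP replicates, so the SP arrays lay on both sides of the non-SP ones. The third, 212347_x_at, read 6.44, 6.08 and 6.0 against 6.12, 6.05 and 6.17. Their differences were -0.04, -0.29 and 0.06 (SE 0.19, 0.26 and 0.15), and that of the second ranged from -0.59 to -0.12 with 1 array left out. In the first and the third, both SP and non-SP arrays of set 2 lay below those of set 1, at 6.33 to 6.53 against 6.74 to 6.83 and at 6.0 to 6.08 against 6.12 to 6.44.

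MLX, the shared partner of MLXIP and several antagonists, had 6 probe sets, all with differences above 0, from 0.12 to 0.27. Probe sets of 1 gene share its RNA and are not independent. The brightest, 213708_s_at, read 10.66, 10.86 and 10.86 in SP replicates and 10.39, 10.77 and 10.53 in non-SP replicates. Non-SP replicate 2 lay inside the SP range. The means were 10.79 ± 0.11 and 10.56 ± 0.20 (SD, n = 3 each), a difference of 0.23 with a 95% interval of -0.11 to 0.57 (limma adjusted p = 0.867). With the array set as a block it was 0.14 (SE 0.11), and with 1 array left out 0.14 to 0.33.

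For 4 of the 6 MLX probe sets, every array of set 2 lay above every array of set 1. At 210752_s_at the values were 9.0, 9.26 and 8.91 on the arrays of set 2 (SP replicates 2 and 3, non-SP replicate 2) and 8.41, 8.60 and 8.56 on those of set 1 (SP replicate 1, non-SP replicates 1 and 3). Another MLX probe set, 217909_s_at, ran the other way, with set 2 lower by 0.27 in the block fit.

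MLXIP encodes the glucose-responsive partner of MLX. Its brightest probe set, 225157_at, read 9.88, 9.83 and 9.67 in SP replicates and 10.19, 9.56 and 10.03 in non-SP replicates. The difference was -0.13 with a 95% interval of -0.57 to 0.31 (limma adjusted p = 0.946), and here every array of set 2 lay below every array of set 1. It was -0.02 with the array set as a block, -0.0018 without non-SP replicate 1 and -0.31 without non-SP replicate 2. The dimmest probe set, 1554886_a_at, read 5.51, 4.81 and 5.07 in SP cells and 4.89, 4.5 and 4.69 in non-SP cells. SP replicate 2 lay inside the non-SP range, and the difference was 0.44 (SE 0.21, limma adjusted p = 0.739). It was 0.72 within set 1 and 0.44 within set 2. The mean of the 4 MLXIP probe sets turned the gene to 0.04.

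**Figure D2:**
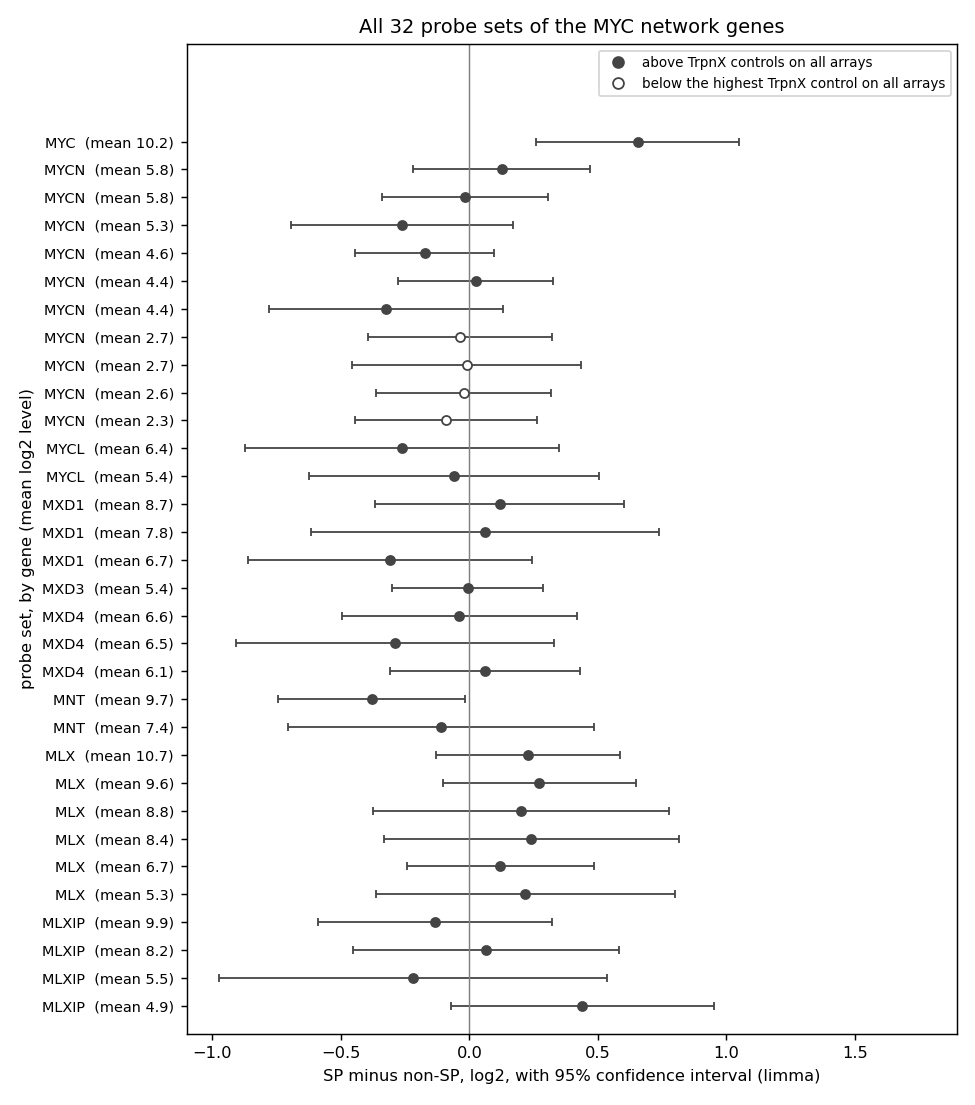
Difference between SP and non-SP cells (horizontal axis, log2, with 95% confidence intervals from limma) for each of the 32 probe sets, grouped by gene and labelled with the mean log2 level. Open points are the 4 MYCN probe sets below the highest TrpnX control on all arrays; the intervals of the MYC probe set and of the brighter MNT probe set leave out 0.

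The network's own binding letters were looked for in the 250 bases before the start of 8 of the 9 member genes, from RefSeq (GRCh38.p14). The promoter of MYC was not analysed here. The palindrome CACGTG, which reads the same on both strands, was in those of MNT, MLX and MXD4, 3 of the 8 member promoters used here. It was in 6.34% of 35116 promoters of the same length. The related letters CACGCG, on either strand, were in 0 of the 8 and in 9.72% of all. These 3 promoters are shown because they hold the letters; capitals mark CACGTG, and the match is a description of the letters, not a binding site. The MNT stretch is chr17:2401061-2401310 on the minus strand, MLX chr17:42566850-42567099 on the plus strand and MXD4 chr4:2262110-2262359 on the minus strand.
MNT: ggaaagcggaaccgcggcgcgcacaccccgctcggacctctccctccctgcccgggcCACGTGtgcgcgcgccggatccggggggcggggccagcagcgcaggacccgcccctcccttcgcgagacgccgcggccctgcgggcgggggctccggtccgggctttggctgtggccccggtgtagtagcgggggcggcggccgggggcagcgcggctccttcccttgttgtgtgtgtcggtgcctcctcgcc
MLX: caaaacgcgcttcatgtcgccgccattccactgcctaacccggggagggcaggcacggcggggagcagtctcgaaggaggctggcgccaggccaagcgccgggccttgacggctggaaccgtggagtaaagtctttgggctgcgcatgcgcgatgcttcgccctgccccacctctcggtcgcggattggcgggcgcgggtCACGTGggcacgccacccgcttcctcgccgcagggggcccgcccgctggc
MXD4: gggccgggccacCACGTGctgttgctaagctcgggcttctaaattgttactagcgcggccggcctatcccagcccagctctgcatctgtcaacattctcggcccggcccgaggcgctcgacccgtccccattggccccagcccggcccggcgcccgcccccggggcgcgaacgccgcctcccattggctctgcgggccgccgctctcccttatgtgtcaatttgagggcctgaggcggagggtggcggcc
The first base of the match lay 193 bases before the start of MNT, 50 before that of MLX and 238 before that of MXD4.

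Across the 32 probe sets, 7 (21.9%) had array sets that did not overlap, 4 higher and 3 lower in set 2, against 23% of all probe sets (10.9% higher and 12% lower). These shares are a description only, since probe sets of 1 gene are not independent. The 7 were 4 of MLX, 2 of MXD4 and MIR4800 and 1 of MLXIP. MYC differed by -0.33 between sets in the block fit, less than between SP and non-SP cells, and its sets overlapped.

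**Figure D3:**
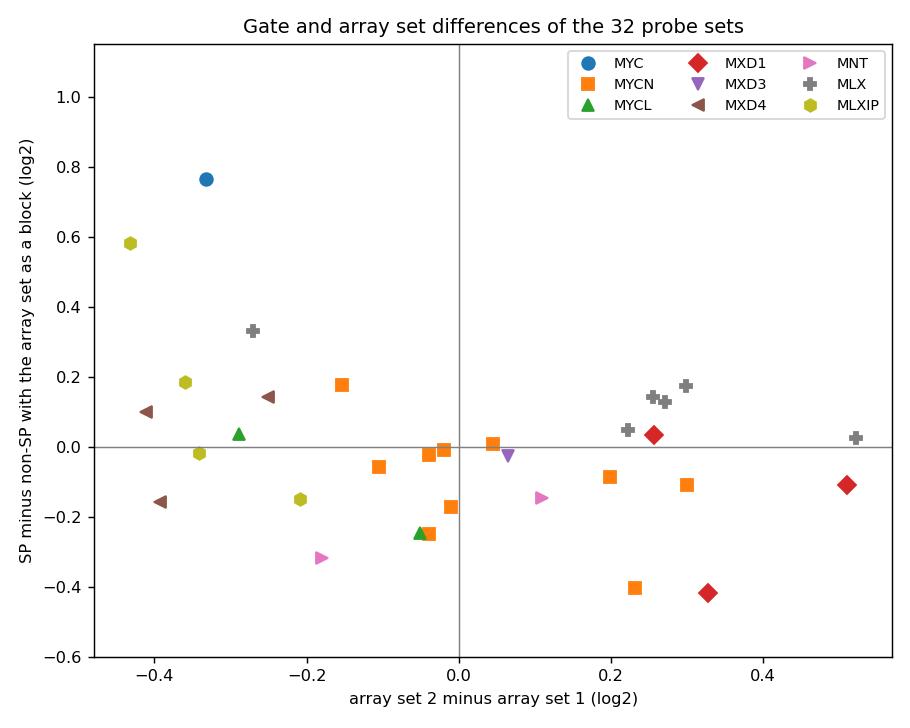
Each point is 1 of the 32 probe sets, with the difference between array sets (horizontal axis, set 2 minus set 1, log2) against the difference between SP and non-SP cells (vertical axis, log2) from the limma fit with the array set as a block. MYC is the highest point (0.77), most MLX points lie to the right of 0 and the MLXIP and MXD4 points lie to the left.

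Of 4 other genes of the network, 3 differed above 0 and 1 below, and 0 passed the test. MAX, the obligate partner of MYC, read 10.11, 10.89 and 10.92 in SP replicates and 10.03, 10.88 and 10.17 in non-SP replicates, which gave a difference of 0.29 (SE 0.31, limma adjusted p = 0.928). Its 3 highest arrays were those of set 2, and the SP minus non-SP difference inside the sets was 0.01 and 0.03. MXI1, a further antagonist, differed by 0.37 (SE 0.29) and was also higher in set 2. MGA, a MAX partner found in a Polycomb-related repressor, differed by 0.11 (SE 0.13), and MLXIPL (ChREBP), the liver relative of MLXIP, by -0.06 (SE 0.21).

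Among genes known to be activated by MYC, 24 of 33 measured lay above 0 and 9 below, with a median of 0.09. Over all genes 45.2% lay above 0 and the median was -0.02. In this list 0 genes passed adjusted p, 0 reached an unadjusted p under 0.05, and the groups did not overlap for 1 (PPAT, higher), where 4.78% of all genes did so upward. The list's median was 0.01 inside array set 1 and 0.07 inside set 2, and set 2 exceeded set 1 by a median of 0.26. Without SP replicate 1, the SP array of set 1, the median was 0.19, and with the set as a block it was 0.04.

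MRTO4, a ribosome assembly factor, read 9.62, 10.12 and 10.03 in SP cells and 9.51, 9.68 and 9.48 in non-SP cells, which gave 0.36 (SE 0.16, limma adjusted p = 0.746). PPAT, the first enzyme of purine synthesis, differed by 0.21 (SE 0.11), WDR43, a small-subunit ribosome factor, by 0.28 (SE 0.21) and CCND2 (cyclin D2) by 0.94 (SE 0.63). With the array set as a block, WDR43 differed by 0.14 and CCND2 by 0.45, and CCND2 was higher in set 2 by 1.46. CCND2 was weak and varied most, from 3.59 to 6.42. Its other probe sets differed by 0.53, -0.06 and 0.22, so size and sign depend on the probe set. The abundant targets NCL and NPM1, both nucleolar proteins, differed by 0.05 (SE 0.12) and 0.03 (SE 0.10), and ODC1, the polyamine enzyme often used as a MYC target, by -0.15 (SE 0.14). These last 3 were chosen after their values were seen.

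Genes known to be repressed by MYC lay on both sides of 0, with 3 of 9 above and a median of -0.07. That median was 0.08 inside array set 1 and -0.10 inside set 2. CDKN1A, the cell cycle inhibitor p21, had the smallest p and was higher in SP cells. It read 11.23, 11.74 and 11.83 in SP replicates and 10.84, 11.22 and 10.93 in non-SP replicates, groups that part by 0.01 at the closest. The difference was 0.60 (SE 0.20, limma adjusted p = 0.62), and it was 0.35 and 0.56 within the 2 array sets. CEBPA, a differentiation factor, was dim and differed by -0.33 (SE 0.14), CDKN1B (p27) by -0.19 (SE 0.16) and NDRG2 by -0.60 (SE 0.53). At its brightest probe set, NDRG2 was higher on the arrays of set 1 than of set 2 in the block fit, by 1.36. The other NDRG2 probe sets differed by -0.45 (SE 0.19) with overlap and by -1.16 (SE 0.34) without overlap. Neither passed the test (limma adjusted p = 0.683 and 0.520).

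The genes known to respond to MLXIP and MLX showed small differences, 3 of 4 above 0, with a median of 0.07 that turned to -0.0053 with the array set as a block. TXNIP, the thioredoxin-binding arrestin and best known target of the pair, read 10.74, 11.0 and 11.08 in SP cells and 10.92, 10.88 and 10.73 in non-SP cells. These overlap, with a difference of 0.10 (SE 0.14, limma adjusted p = 0.948). ARRDC4 differed by 0.17 (SE 0.37), and the glycolytic genes PFKFB3 and HK2 by 0.05 (SE 0.22) and -0.06 (SE 0.13). The other HK2 probe sets differed by 0.35 and -0.23, so its sign depends on the probe set.

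**Figure D4:**
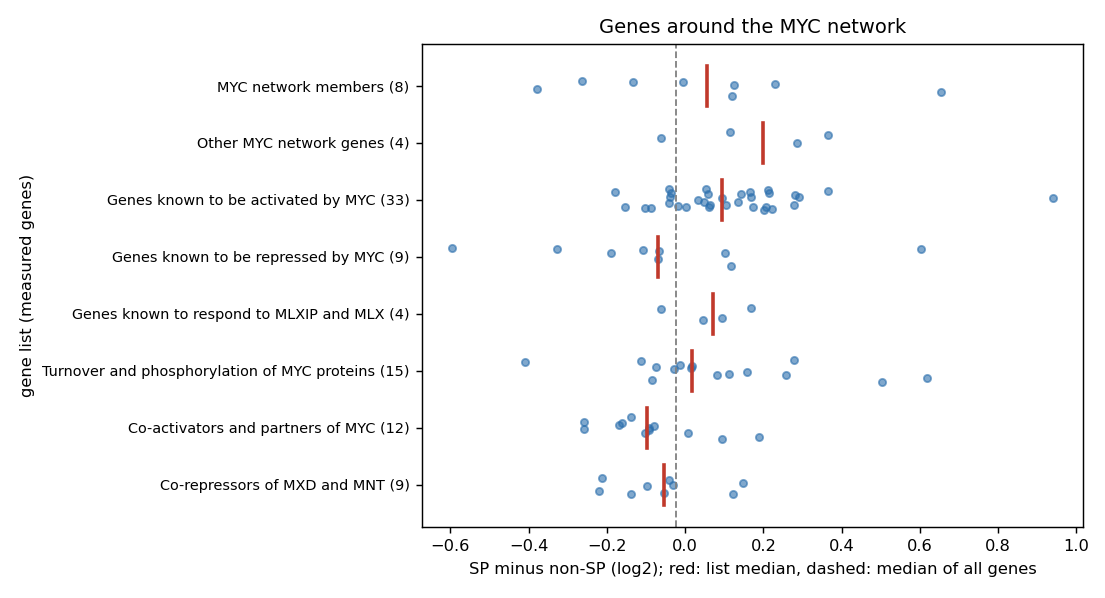
SP minus non-SP difference (horizontal axis, log2) of each measured gene in 8 lists, with the list median in red and the median of all genes (-0.02) dashed. The largest medians away from it are those of the other network genes (0.20) and of genes activated by MYC (0.09), and single genes in every list lie on both sides of 0.

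Of 15 measured genes for the turnover and phosphorylation of MYC proteins, 9 lay above 0 and 6 below, with a median of 0.02 and 0 past the test. Leaving out SP replicate 3 raised the median to 0.12 and leaving out non-SP replicate 1 to 0.07, and its sign turned with array weights (-0.0040) and without non-SP replicate 2 (-0.0017). Without adjustment, 2 were higher and 0 lower at p under 0.05, where 3.07% and 3.71% of all genes were. USP36, a nucleolar deubiquitinase that protects MYC from FBXW7, read 8.48, 8.38 and 8.46 in SP cells and 8.13, 7.70 and 7.98 in non-SP cells. Groups did not overlap, and the difference was 0.50 (SE 0.14, limma adjusted p = 0.597). Its 5 probe sets ranged from -0.04 to 0.98, so size and sign depend on the probe set. CIP2A, which shields MYC from the phosphatase PP2A, read 6.43, 6.77 and 6.35 in SP cells and 5.51, 6.31 and 5.88 in non-SP cells. The difference was 0.62 (SE 0.23, limma adjusted p = 0.692), and its other probe set differed by 0.15. FBXW7, the ubiquitin ligase subunit that marks MYC for destruction, differed by 0.28 (SE 0.14), with 1 of its 4 probe sets at -0.62, and SKP2, another ligase subunit, by 0.26 (SE 0.18).

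Co-activators and partners of MYC lay mostly below 0 (9 of 12 measured, median -0.10), with 0 past the test and 0 at an unadjusted p under 0.05. That left 25% above 0, against 45.2% of all genes. The median was 0.0075 inside array set 1, -0.11 inside set 2 and -0.04 with the set as a block. TRRAP, the scaffold that brings acetyltransferases to MYC, read 8.74, 8.74 and 8.71 in SP cells against 8.27, 8.67 and 8.69 in non-SP cells, for a difference of 0.19 (SE 0.15). ZBTB17 (MIZ1), through which MYC represses, differed by -0.16 (SE 0.13), HCFC1 by -0.17 (SE 0.17) and EP400, an ATPase of the NuA4 complex, by -0.26 (SE 0.27). The other EP400 probe sets differed by 0.07, 0.01 and -0.09, so its sign depends on the probe set. Among co-repressors of MXD and MNT, 7 of 9 lay below 0, with a median of -0.06. The sign of that median turned with the mean of probe sets (0.0073) and without non-SP replicate 3 (0.01). The median was -0.15 inside array set 1 and 0.08 inside set 2. SIN3A, named after its values were seen, counted below 0 through its brightest probe set (-0.14, SE 0.25). Its other probe sets were higher in SP cells without overlap, at 0.60, 0.49 and 0.81 (limma adjusted p = 0.299, 0.674 and 0.777). HDAC1, a deacetylase of the SIN3 complex, read 11.07, 11.08 and 11.13 in SP cells and 11.21, 11.40 and 11.31 in non-SP cells, which do not overlap, but the difference of -0.21 (SE 0.11) did not pass (limma adjusted p = 0.815). HDAC2 differed by 0.15 (SE 0.15), RBBP4 by 0.12 (SE 0.16) and SIN3B by -0.22 (SE 0.30). The sign of each depends on the probe set. HDAC2 was at -0.46 at its other probe set, SIN3B at 0.26 and 0.22, and RBBP4 ranged from -0.14 to 0.43.

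**Figure D5:**
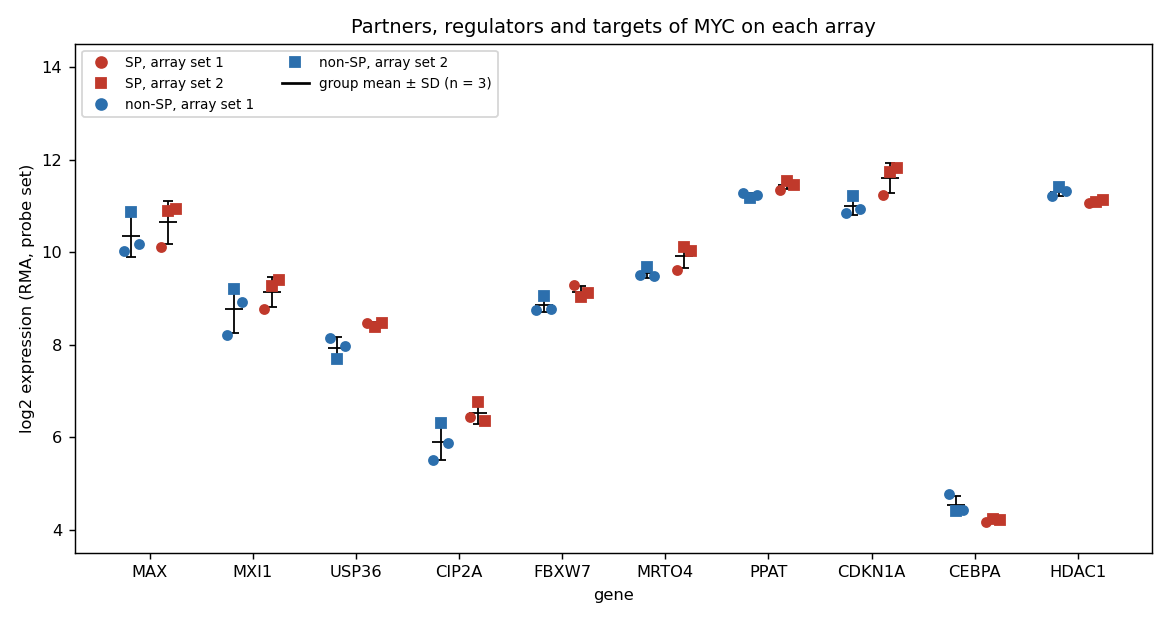
Log2 expression (vertical axis) of 10 partners, regulators and targets of MYC on each array, drawn as in the plot of member levels with group means ± SD (n = 3). USP36 (7.70 to 8.13 in non-SP, 8.38 to 8.48 in SP), CIP2A, PPAT and CDKN1A lie higher in all SP arrays and HDAC1 and CEBPA lower, while MAX and MXI1 are highest on the arrays of set 2.

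The genes whose pattern over the 6 arrays was most like that of MYC were MTPAP, the mitochondrial poly(A) polymerase (Pearson r = 0.996), HAVCR1P1, a pseudogene (0.988), and MSX2, a homeobox factor (0.988). They were found among 9886 other genes above the median level, of which 34 had r above 0.95. With so many genes and 6 arrays, close matches arise easily, and the value describes these arrays only. Between members, MYC had r = 0.65 with MYCN and -0.58 with MNT over the same arrays. MLX and MLXIP had r = -0.87, and MYCN and MXD3 r = -0.88. No rule set which pairs are given here. All share the arrays and their normalization, and MLX and MLXIP also share the array sets.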

How the data were processed

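RNA of sorted cells was amplified for picogram amounts and labelled with biotin, per the labels' protocols; such amplification widens the spread of weak transcripts. The authors deposited log2 values per probe set, made with R 2.8.1, affy and RMA per the submitters' processing notes. RMA sets all arrays to 1 distribution, so a global change in RNA content is hidden and differences near background are compressed. The precision is limited by the number of arrays.

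After 62 controls were left out, 54613 probe sets were fitted, and 41091 with 1 symbol gave 19775 genes (highest mean over the 6 arrays). Of listed genes, those without a probe set of a single symbol were not analysed here. The test was that of limma 3.58.1 (R 4.3.3; lmFit and eBayes with no block), two-sided, with Benjamini-Hochberg adjustment over all genes, or over all probe sets for values given by probe set, and a threshold of 0.05; the fit was tested on simulated data. Python 3.11.15, pandas 2.3.3 and matplotlib 3.10.9 read and drew the values. The members and lists were chosen with earlier results of these data known. Named were all members, up to 4 genes by unadjusted p of each other list, and the 3 genes most like MYC. MYC was the member with the smallest p. KRT18, KRT19, CD3E, COL1A1, SIN3A, NCL, NPM1 and ODC1 were named outside this rule. Tried as alternatives were leaving out each array, cyclic loess, array weights, averaged or separate probe sets, a robust prior with an intensity trend, median centring of arrays, genes above the median level only, and the replicate number, array set or ACTB signal in the model.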

Additional observations from a re-analysis of the deposited data

How the results depend on the processing

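In limma 0 members passed an adjusted p of 0.05 in the 16 alternatives run on genes, and 0 of their probe sets in the 13 run on probe sets. MYCN and MXD3 had 15 alternatives, since the filter on dim genes left them out. The differences of MYC, MYCL, MNT, MLX and probe set 210778_s_at of MXD4 and MIR4800 kept their sign in every alternative run on them. With the mean of all probe sets, MYCN turned to -0.079, MXD1 to -0.043 and MLXIP to 0.038. MXD3 turned to 0.027 under cyclic loess and to 0.0023 with median centring. Probe set 212346_s_at turned to 0.011 with the ACTB covariate and 0.098 with the array set block, and 212347_x_at to -0.019 with array weights; the cause was not tested. Leaving out 1 array gave -0.037 to 0.29 for MXD1, -0.071 to 0.037 for MXD3, -0.19 to 0.058 for 212346_s_at, -0.074 to 0.15 for 212347_x_at and 0.049 to 0.19 for the median of genes activated by MYC.

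Over all genes the count of calls, 1 as reported, was 0 with the mean of probe sets and with dim genes left out, 3 with the ACTB covariate, 5 with the array set block, 12 with array weights and 1 to 2 with 1 array left out. Over all probe sets it was 4 with the ACTB covariate, 5 with the array set block and 0 to 2 with 1 array left out. The replicate block gave 3 genes and 0 probe sets, and MYC at 0.65 (limma adjusted p = 0.407); same-numbered samples deviated together with r of 0.449, 0.381 and -0.212, so the numbers were not taken as pairs, and the block changed no member's call.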
